A study of Mus musculus with 8 samples.

Results

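T and NK cells are lymphocytes, and 8 transcripts best known from them were followed here in RNA from myeloid cells of mouse lung. The 8 genes were taken by name as rows of a NanoString nCounter immune panel: Cd247, Icos, Gzma, Nkg7, Klrk1, Cd244, Lag3 and Havcr2, which are 8 of its 754 gene rows. The nCounter assay counts fluorescent barcodes hybridised to RNA, so a value derives from a number of barcodes counted. Balb/c mice carried grafts of 4T1 cells, a mammary tumour line of the same strain, and 24 mice were divided evenly between placebo (DMSO) and DSHN, a compound that activates the nuclear receptor NR0B2. Treatment began 10 days after grafting and was given daily for 7 days, with a labelled dose of 10 mg/kg, which the labels also list for the placebo mice. Both groups bore the tumour, so no untreated or tumour-free lung is compared. Sex and age are not given in the labels. Each sample pooled the lungs of 3 mice of the same treatment, and cells were taken with CD11b and CD11c beads, which left 4 DMSO and 4 DSHN pools from separate animals. The design text calls the cells dendritic cells positive for both CD11b and CD11c.

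As background, an activated T cell reads antigen through its receptor, whose zeta chain (Cd247) carries the signal inward, and then shows costimulatory and inhibitory receptors such as Icos, Lag3 and Havcr2. NK cells and cytotoxic T cells detect stressed cells through receptors such as NKG2D (Klrk1) and 2B4 (Cd244) and kill them with granules that hold granzyme A (Gzma) and the membrane protein Nkg7. Expression is not limited to lymphocytes: mouse NK cells carry CD11b as they mature, Havcr2 (TIM-3) is found on dendritic cells and macrophages, and Cd244 on several myeloid cells. In pooled cells, fewer cells of a type and less RNA per cell cannot be told apart.

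The 8 transcripts were scarce and were not shown to differ between DSHN and DMSO. None passed the test relative to housekeeping genes (limma, 0 of 8 members at a Benjamini-Hochberg adjusted p under 0.05, against 0 of 554 genes tested, 0%). Gzma, Nkg7 and Cd244 lay above the negative-control limit in every pool except DSHN 1. Cd247 had the largest difference among the members, 1.42 on the log2 scale (adjusted p = 0.925), and Gzma and Cd244 had the smallest, both at -0.03. Lag3 and Havcr2 reached the limit in so few pools that no difference is given for them.

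Pools differed in depth. Counts over all gene probes summed to between 533000 and 923200 in 7 pools and to 123700 in DSHN 1. The limit of detection was set in each pool at the mean plus 2 SD of its 8 negative-control probes, which have no target in mouse RNA. It came to 40.1 counts in DSHN 1 and to 17.9 to 26.9 counts in the other pools. In DSHN 1, 283 of 754 genes were above it, against 498 to 559 elsewhere. The authors had multiplied the gene counts of DMSO 1 by 6.83, a factor of 0.604 to 1.17 in the other pools. Oaz1, Ppia, Rpl19 and Tubb5, the housekeeping genes used for scaling, averaged 11.91 ± 1.03 (SD, n = 4) in DMSO pools and 10.01 ± 1.44 (SD, n = 4) in DSHN pools on the deposited log2 scale. That is a difference of -1.90, with a two-sided p of 0.0286 by exact permutation, the lowest value 70 assignments can give. Levels below are log2 values after subtraction of that mean in each pool, plus a constant. The isolation markers Itgam (CD11b) and Itgax (CD11c) were above the limit in all 8 pools. Of 12 dendritic cell markers on the panel, 9 were above it in at least 4 pools, among them Ccl22 and Cd83 in all 8 and Ccr7, Batf3 and Irf8 in 7 each, while Flt3 was above it in 2, Clec9a in 1 and Xcr1 in 0.

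Over the 8 members and 8 pools, 38 of 64 values (59.4%) exceeded the limit, against 66.8% of such values over all 754 genes. The members' values above the limit numbered 21 of 32 in DMSO and 17 of 32 in DSHN. By pool, 7 members were above it in DSHN 4, 6 in each of DMSO 2, DMSO 3 and DSHN 2, 5 in DMSO 4, 4 in each of DMSO 1 and DSHN 3, and 0 in DSHN 1. In DSHN 1 the 8 members summed to 140 counts, and the 8 negative controls of the same pool to 133. In the other pools the members summed to between 233 and 506 counts and the negative controls to between 66 and 112. Taken as a sum, the members in DSHN 1 were thus close to its blank probes. No member was above the limit in all 8 pools, which 37.3% of the panel genes were, and 3 of 8 were above it in the 7 other pools, against 61.5% of the panel.

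**Figure D1:**
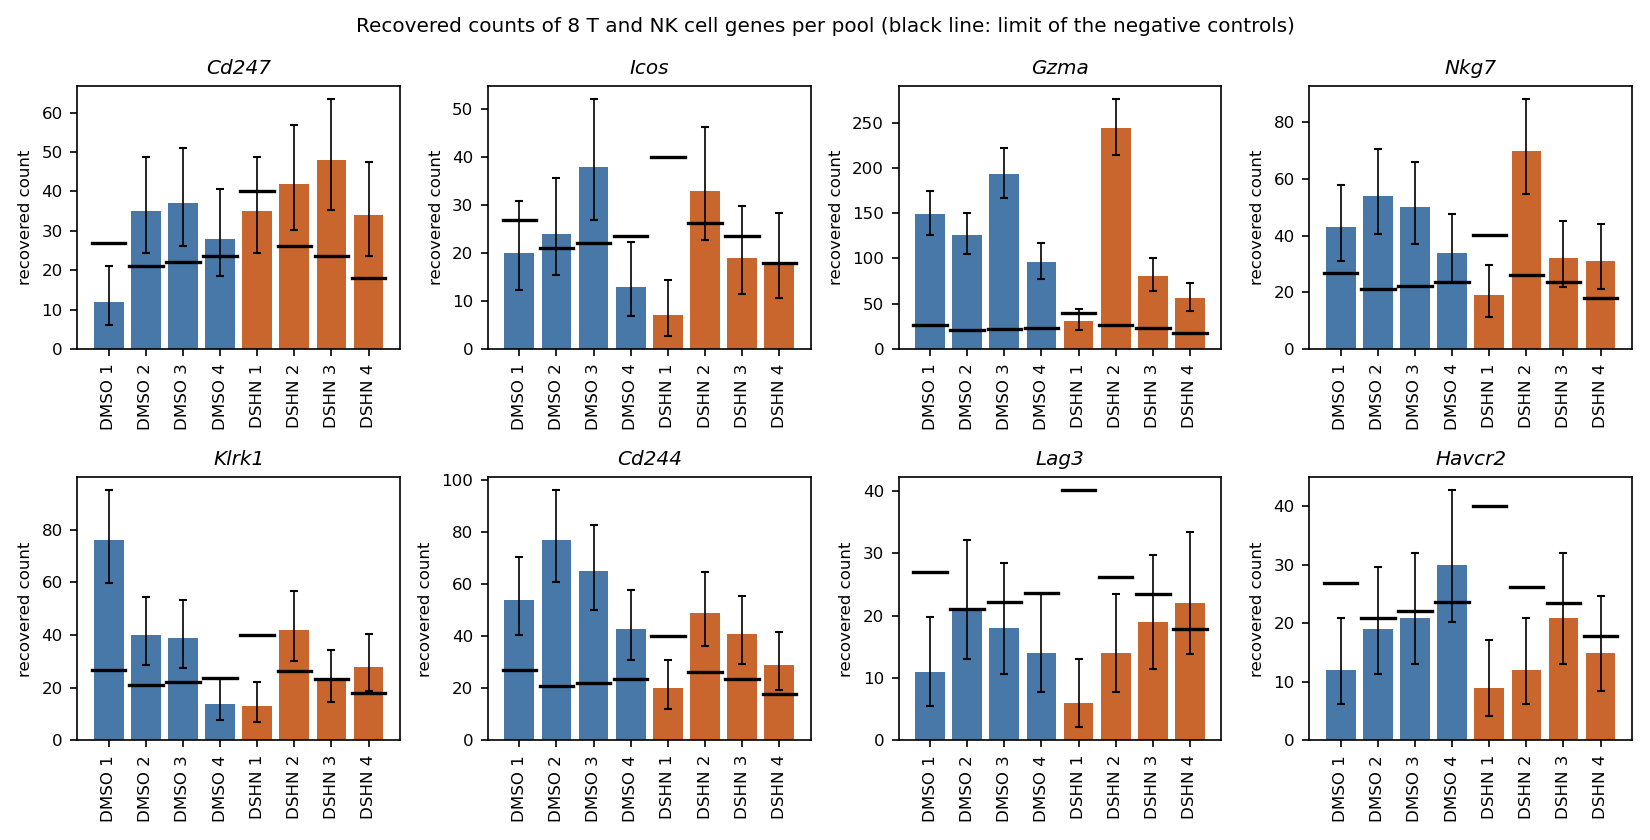
Recovered count (y axis, linear) of each of the 8 genes in each DMSO (blue) and DSHN (orange) pool, with 95% exact Poisson intervals for counting error as error bars and the negative-control limit of each pool as a black line. Gzma stands well above its limit in 7 pools, Lag3 exceeds it only in DSHN 4 and Havcr2 only in DMSO 4, and all 8 bars of DSHN 1 end under a limit of 40.1 counts.

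The antigen receptor chain and the costimulatory receptor were described first. Cd247, the zeta chain through which the T cell receptor and several NK receptors signal, gave 12, 35, 37 and 28 counts in DMSO 1 to 4 and 35, 42, 48 and 34 counts in DSHN 1 to 4. It was above the limit in 3 pools of each group, DMSO 1 and DSHN 1 being the ones under it. Those counts are small: the 95% exact Poisson interval for 35 counts runs from 24.4 to 48.7, and such intervals cover counting error only. Relative to housekeeping genes the DMSO levels were 3.95, 4.51, 4.91 and 4.70, and the DSHN levels 7.50, 5.23, 5.78 and 5.22. The groups did not overlap, as was the case for 2.53% of the genes tested in that direction, and the highest level belonged to DSHN 1, where the limit itself was 7.69.

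The difference in Cd247 was 1.42 ± 0.53 (SE; 95% interval 0.23 to 2.60) by limma, with an unadjusted p = 0.0238, an adjusted p = 0.925 and an exact permutation p = 0.0286. An unadjusted p under 0.05 with a higher mean in DSHN was found for 3.07% of the genes tested (3.61% in either direction), and Cd247 was the 1 member of 8 with it. Without DSHN 1 the difference was 0.89, and without both DMSO 1 and DSHN 1 it was 0.71 ± 0.26 (adjusted p = 0.920), with DMSO at 4.51 to 4.91 and DSHN at 5.22 to 5.78. Among those 6 pools, the groups failed to overlap in the same direction for 7.04% of the genes. On the values as deposited, before division by housekeeping genes, Cd247 was lower in DSHN by -0.48. In all, 553 of the 554 genes tested were lower on those values, with a median difference of -1.87.

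Markers of endothelial and epithelial cells also had higher means in DSHN, and none passed the test. Of the 4 on the panel, 3 were tested, all 3 of them higher, with a median difference of 1.23, or 0.69 without DSHN 1. The endothelial cadherin Cdh5 differed by 1.5 and the epithelial cadherin Cdh1 by 0.41 (limma adjusted p = 0.925 for each). Groups did not overlap for either, as for 2.53% of the genes tested in that direction. Cd34, found on endothelial and progenitor cells, differed by 1.23 (limma adjusted p = 0.925). Cdh5 was above the limit in 1 DMSO and 3 DSHN pools, and Cd34 in 2 and 3. The highest levels of Cdh5 and Cd34, 6.70 and 7.23, were those of DSHN 1, under its limit of 7.69. Tek, an endothelial receptor, was above the limit in 1 pool. Together the 4 genes took 0.0145 to 0.0327% of gene counts in DMSO and 0.0304 to 0.0849% in DSHN, with no background taken off. The highest share was that of DSHN 1. The mean negative-control count, taken for 8 probes, would give 0.1075% there and 0.0078 to 0.0197% in the other pools. Those figures are for 8 probes and the share is for 4 genes, so they cannot be compared directly. Of 9 tested dendritic cell markers, 7 had a higher mean in DSHN and 2 a lower one, Cd83 among these at -0.20. The median difference was 0.29, or 0.16 without DSHN 1, and 53.4% of the 554 genes tested had a higher mean in DSHN. Lamp3, a lysosomal protein of mature dendritic cells, differed by 2.31 with groups that did not overlap, and the chemokine Ccl22 by 0.81 (limma adjusted p = 0.925 for both). Lamp3 was above the limit in 2 DMSO and 3 DSHN pools, and its highest level, 7.66, was that of DSHN 1, under the limit there. The part of other cells in the Cd247 difference was not tested.

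Icos, a costimulatory receptor that T cells display after activation, gave 20, 24, 38 and 13 counts in DMSO 1 to 4 and 7, 33, 19 and 18 counts in DSHN 1 to 4. It was above the limit in DMSO 2, DMSO 3, DSHN 2 and DSHN 4, in the last with 18 counts against a limit of 17.9. The levels ran from 3.59 to 4.94 in DMSO and from 4.30 to 5.18 in DSHN, and the groups overlapped. The difference was 0.41 (95% interval -0.60 to 1.41; limma adjusted p = 0.925), or 0.25 without DSHN 1, an interval wide enough to hold changes in either direction.

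The cytotoxic granule genes followed. Gzma had the highest count of any member in every pool except DSHN 1. Gzma, a granule protease of NK and cytotoxic T cells, gave 149, 126, 193 and 96 counts in DMSO 1 to 4 and 31, 244, 81 and 56 counts in DSHN 1 to 4. DSHN 2 had the highest level, 7.77, and DSHN 4 the lowest, 5.94, so the full range of the gene lay within 1 treatment group. DMSO pools lay at 6.36 to 7.58, inside the DSHN range. DMSO pools averaged 6.92 ± 0.60 and DSHN pools 6.89 ± 0.81 (SD over 4 pools each), which differ by -0.03 (95% interval -1.02 to 0.96; limma adjusted p = 0.996), and by -0.17 without DSHN 1. The interval leaves room for a change of about 1 log2 unit either way.

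Nkg7, a granule membrane protein needed for full killing by cytotoxic lymphocytes, gave 43, 54, 50 and 34 counts in DMSO 1 to 4 and 19, 70, 32 and 31 counts in DSHN 1 to 4. As for Gzma, DSHN 2 was the highest pool above the limit, with a level of 5.97. The other DSHN pools above the limit, DSHN 3 and DSHN 4, stood at 5.20 and 5.08, within the DMSO range of 4.98 to 5.79. The difference was 0.41 (95% interval -0.49 to 1.30; limma adjusted p = 0.925) with all pools and 0.11 without DSHN 1.

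The activating receptors of NK cells came next. Klrk1 encodes NKG2D, which binds stress-induced ligands, and gave 76, 40, 39 and 14 counts in DMSO 1 to 4 and 13, 42, 23 and 28 counts in DSHN 1 to 4. It was above the limit in DMSO 1, DMSO 2, DMSO 3, DSHN 2 and DSHN 4. The placebo pools spread from 3.70 in DMSO 4 to 6.61 in DMSO 1, and the DSHN pools from 4.72 to 6.07 fell inside that spread. DMSO 1, the highest pool for Klrk1, was the lowest for Cd247. The difference in Klrk1 was 0.24 (95% interval -1.10 to 1.58; limma adjusted p = 0.962), -0.03 without DSHN 1 and 0.51 without both DMSO 1 and DSHN 1.

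Cd244 encodes 2B4, a receptor for CD48 on NK cells and some T and myeloid cells, and gave 54, 77, 65 and 43 counts in DMSO 1 to 4 and 20, 49, 41 and 29 counts in DSHN 1 to 4. It was above the limit in 4 DMSO and 3 DSHN pools. Levels lay at 5.32 to 6.12 in DMSO and at 4.99 to 5.55 in the DSHN pools above the limit, with 6.70 in DSHN 1 under it. The difference was -0.03 (95% interval -0.91 to 0.85; limma adjusted p = 0.996) with all pools. It was -0.37 (95% interval -1.0 to 0.26) without DSHN 1 and -0.23 without both DMSO 1 and DSHN 1, and the groups overlapped each time.

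The inhibitory receptors were at the edge of detection. Lag3, which binds MHC class II and restrains T cells, gave 11, 21, 18 and 14 counts in DMSO 1 to 4 and 6, 14, 19 and 22 counts in DSHN 1 to 4. Only the 22 counts of DSHN 4 exceeded the limit of their pool, and the 21 counts of DMSO 2 equalled theirs, 21.0. Havcr2 encodes TIM-3, an inhibitory receptor of T cells and myeloid cells, and gave 12, 19, 21 and 30 counts in DMSO 1 to 4 and 9, 12, 21 and 15 counts in DSHN 1 to 4. Only DMSO 4 exceeded its limit, with 30 counts against 23.6. With 1 pool of 8 above the limit for each gene, a difference between the groups was not detectable at this depth.

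**Figure D2:**
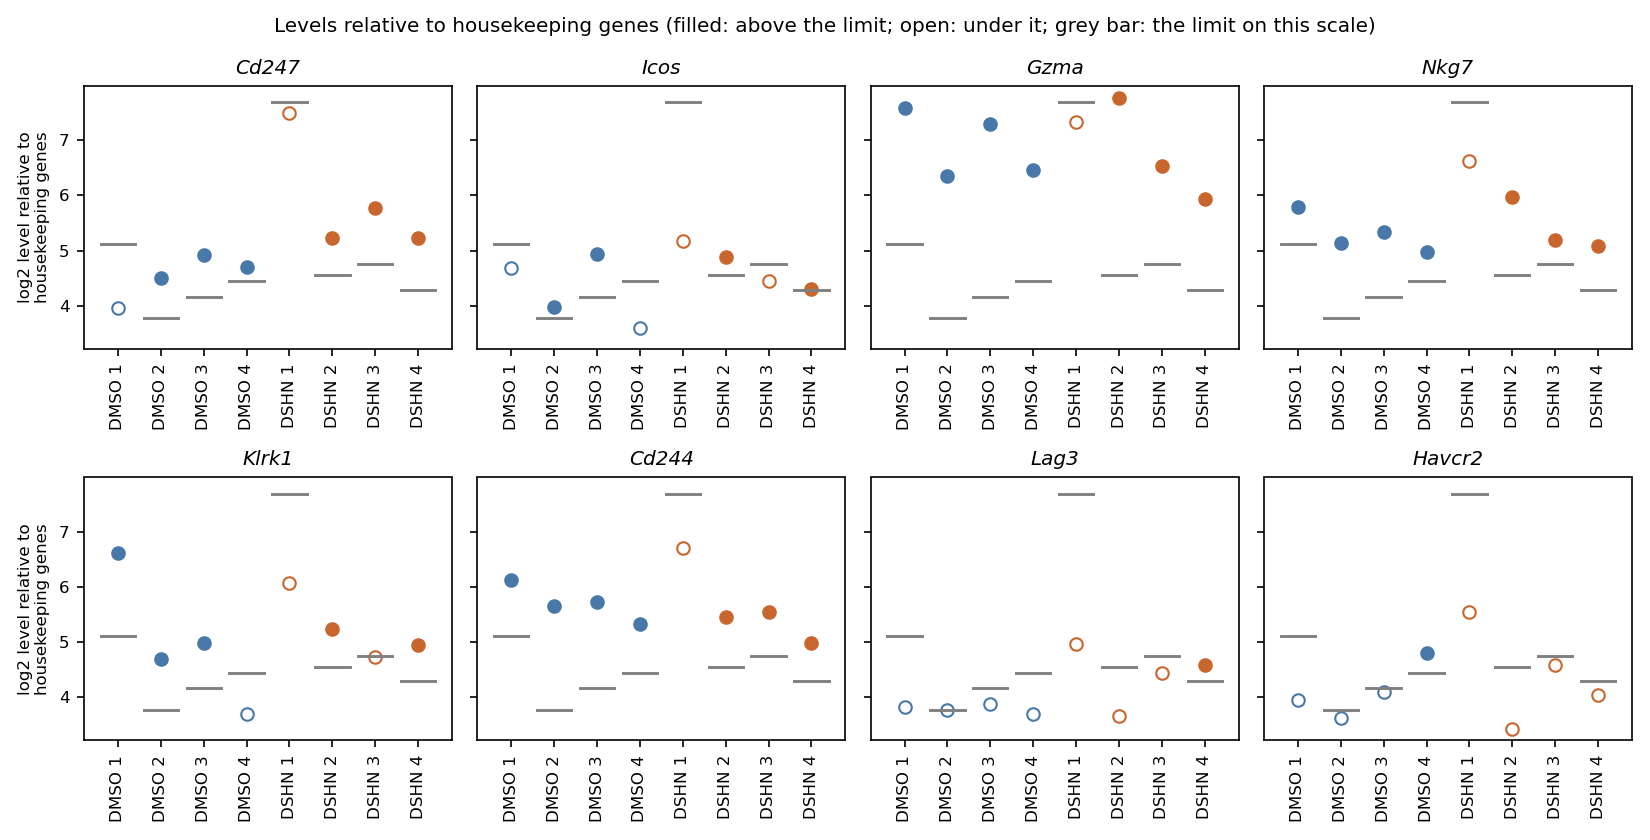
Log2 level relative to the 4 housekeeping genes (y axis) of each gene in each DMSO (blue) and DSHN (orange) pool. Filled points are above the negative-control limit, open points under it, and grey bars show that limit on the same scale; the bar of DSHN 1 is at 7.69 against 3.77 to 5.11 in the other pools, and every point of DSHN 1 is open.

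The scale itself carried a difference for probes with no target. When the negative controls were given the same factor and divided by the same housekeeping genes, they averaged 2.80 ± 0.57 over the DMSO pools and 4.06 ± 1.44 over the DSHN pools (SD over 4 pools each). The 2 means differed by 1.27, and exact permutation gave a two-sided p = 0.1143. It was 0.57 without DSHN 1 and 0.56 without both DMSO 1 and DSHN 1. All 8 control probes had a higher mean in DSHN, with differences from 0.63 to 2.20, and the value for Cd247 lies inside that range. Of the 157 panel genes under the limit in all 8 pools, 157 had a higher mean in DSHN, with a median difference of 1.09, or 0.46 without DSHN 1, and 14 (8.92%) had groups that did not overlap. The 281 genes above the limit in all 8 pools had a median difference of -0.08. The part that low signal in DSHN 1 plays in the members' differences was not tested.

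**Figure D3:**
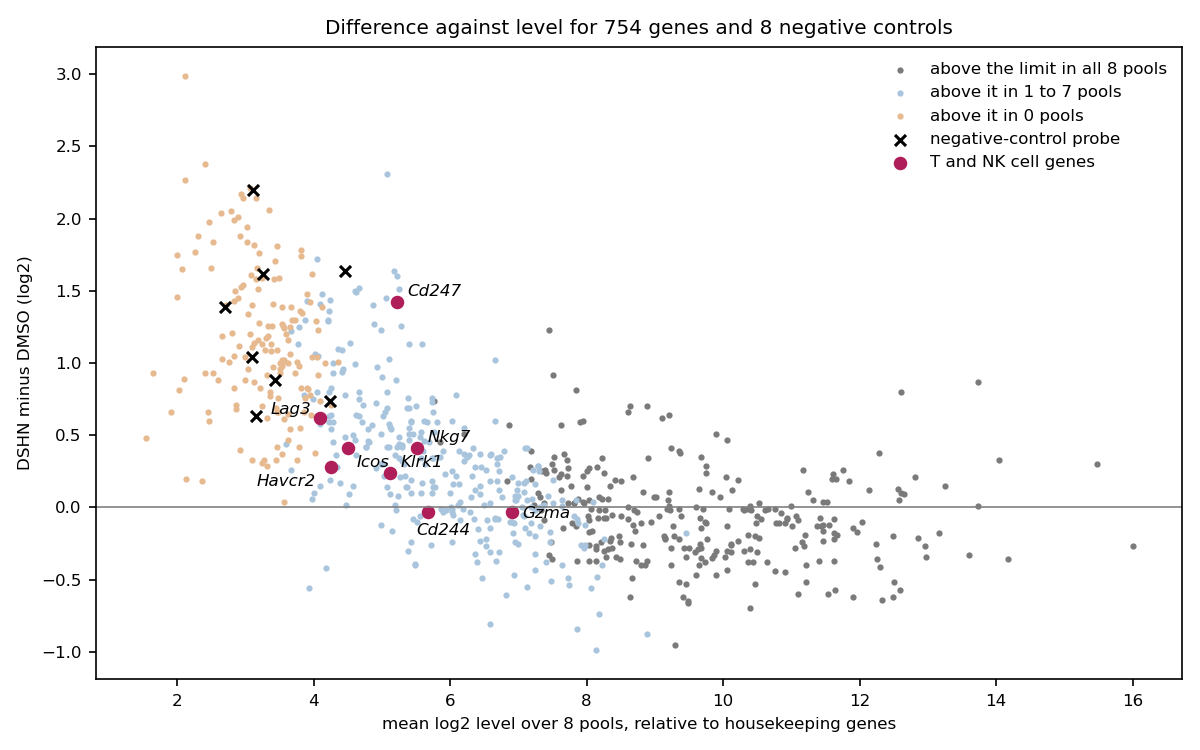
DSHN minus DMSO difference (y axis, log2) against mean level over 8 pools relative to housekeeping genes (x axis, log2) for 754 genes, coloured by the number of pools above the limit, with the 8 negative-control probes as crosses and the 8 members in red. Genes above the limit in 0 pools lie at the left with a median of 1.09, together with the crosses; the members lie at mean levels from 4.10 (Lag3) to 6.91 (Gzma), with Cd247 at a difference of 1.42, and Lag3 and Havcr2, each above the limit in 1 pool, are drawn for their position only.

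Subtracting the mean negative-control count from each gene before scaling left the members on both sides of 0. Remainders under 1 count were set to 1, which among the members given here applied to Klrk1 and Icos in DMSO 4 and DSHN 1. Cd247 then differed by 1.73 (95% interval 0.30 to 3.16; limma adjusted p = 0.879), and by 0.86 (-0.03 to 1.74; adjusted p = 0.990) when DMSO 1 and DSHN 1 were also left out. Gzma, Nkg7, Klrk1 and Cd244 differed by -0.31, -0.30, -0.05 and -0.72, and Icos by 0.28, with every interval including 0. Without DSHN 1, Nkg7 and Klrk1 were at 0.01 and 0.40 after subtraction, and without both DMSO 1 and DSHN 1 Nkg7, Klrk1 and Icos were at 0.20, 1.28 and 0.86, so the signs of Nkg7 and Klrk1 turned with those pools. Over the 554 genes the median difference moved from 0.03 to -0.20. Values near background are the least certain under subtraction, since the remainder is small or set to 1. The Klrk1 and Icos differences, and the turn in sign of Klrk1, depend on that floor.

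**Figure D4:**
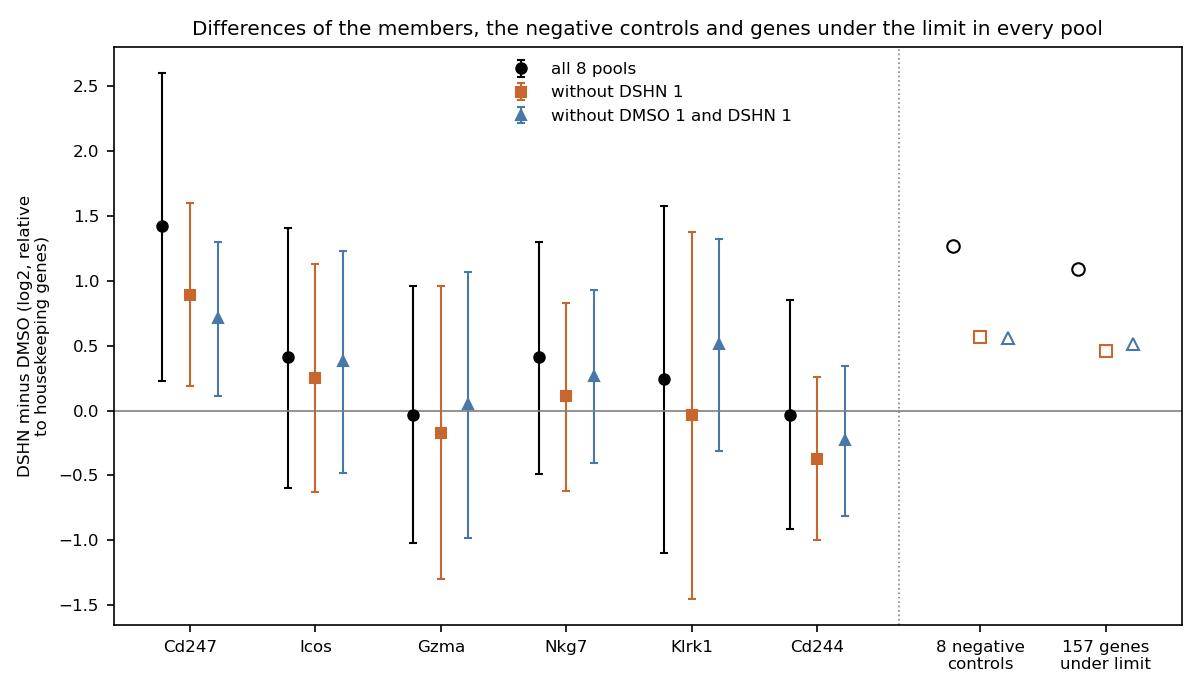
DSHN minus DMSO difference (y axis, log2, relative to housekeeping genes) for 6 members with 95% limma intervals, in all 8 pools (circles), without DSHN 1 (squares) and without DMSO 1 and DSHN 1 (triangles). Open symbols at the right give the mean of the 8 negative controls (1.27, 0.57 and 0.56) and the median of the 157 genes under the limit in every pool (1.09, 0.46 and 0.51). Intervals of 5 members include 0 in all 3 sets of pools, and those of Cd247 do not.

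A share of all gene counts needs no housekeeping gene. Together the 8 members made up 0.0509 ± 0.00927% of gene counts in DMSO pools and 0.0728 ± 0.0338% in DSHN pools (SD over 4 pools each). The highest share, 0.113%, was that of DSHN 1 and the lowest, 0.0377%, that of DSHN 4, so the DSHN pools enclosed the whole range. With the mean negative-control count taken off each member, the shares were 0.0396 ± 0.0115% and 0.0404 ± 0.0201%, and the highest was then that of DSHN 2. For scale, the 14 myeloid lineage genes on the panel, among them S100a8, S100a9 and Tyrobp, took 19.1 to 27.9% of gene counts.

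Other T cell genes of the panel were detected in some pools or none. Of 33 T cell lineage genes listed, 10 were on the panel and 5 of these were under the limit in all 8 pools, Cd27, Cd40lg, Il2, Tnfrsf4 and Stat4, as were 20.8% of all 754 genes. Of the 4 that entered the test, Cd28, a costimulatory receptor, differed by 0.45 (limma adjusted p = 0.925), Lat, an adaptor of T cell receptor signalling, by 0.64, and the others were Cd247 and Icos. All 4 had a higher mean in DSHN, with a median of 0.54 against 0.03 over all 554 genes tested, of which 53.4% were higher. Each of the 4 was above the limit in only some pools, Cd28 in 5 and Lat in 4 of the 8. Of the 316 panel genes above it in 1 to 7 pools, 230 were higher in DSHN, with a median of 0.26. Without DSHN 1 the median of the 4 genes was 0.22, and without both DMSO 1 and DSHN 1 it was also 0.22, with 3 of them higher. The summed share of the 10 genes, with no background taken off, was 0.0145 to 0.0311% in DMSO and 0.0220 to 0.116% in DSHN. The highest was that of DSHN 1, where 8 probes at the mean negative-control count would take 0.1075%, against 0.0078 to 0.0197% in the other pools. Blank probes as many as the 10 genes would take more than those 8, so the share in DSHN 1 was not shown to exceed background. Cd3e, Cd8a, Ncr1 and Prf1, usual identifiers of T and NK cells, are not among the 754 gene rows. The members thus cannot be assigned to a lymphocyte type.

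Of 27 NK and cytotoxic genes listed, 6 were on the panel. Ifng, the cytokine interferon gamma, was under the limit in all 8 pools. Ccl5, a chemokine made by NK cells, T cells and macrophages, was above it in all 8 and ranged from 7.36 to 9.96 in DMSO, with its highest level in DMSO 1, as for Klrk1. It stood at 7.82 to 8.0 in DSHN, a difference of -0.26 (95% interval -1.41 to 0.89; limma adjusted p = 0.928). Of the 5 tested genes in this list, 2 had a higher and 3 a lower mean, and their median difference was -0.03. Without DSHN 1 a single gene of the 5 had a higher mean (median -0.17), and 4 of the 5 had one when DMSO 1 was left out as well (median 0.27). The B cell marker Ms4a1 was above the limit in 7 pools and differed by 0.41 (limma adjusted p = 0.925), and Fcer2a was under it in all 8.

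Other inhibitory receptors were divided between detected and undetected. Vsir (VISTA), abundant on myeloid cells, was above the limit in all 8 pools and differed by -0.10 (limma adjusted p = 0.962). Btla, found on lymphocytes and dendritic cells, was above it in 5 pools and differed by 0.72 (adjusted p = 0.925). Pdcd1 (PD-1) was above the limit in 0 pools, Tigit in 1 and Ctla4 in 2.

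Ligands, adaptors and related receptors of the members were well detected. All 12 of the list on the panel entered the test, 7 of them above the limit in all 8 pools, and 0 passed it (limma, 0 also at an unadjusted p under 0.05). Means in DSHN were higher for 4 of them and lower for 8, and the median difference was -0.13. Icosl, the ligand of ICOS, differed by 0.19 (95% interval -0.57 to 0.94). Tyrobp, an adaptor that carries NKG2D signals in mouse NK cells and those of many myeloid receptors, differed by 0.33 (-0.21 to 0.86), and the kinase Syk, which binds phosphorylated adaptors and zeta chains, by -0.13 (-0.59 to 0.33).

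The MHC class II genes H2-Aa, H2-Ab1 and H2-Eb1, whose products LAG-3 binds, differed by -0.13, -0.28 and -0.01, and the galectin Lgals3, also described as a LAG-3 ligand, by -0.14. For TIM-3, the ligands Ceacam1 and Hmgb1 differed by -0.61 (95% interval -1.53 to 0.30) and 0.16 (-0.40 to 0.72). Timd4, a phosphatidylserine receptor of the TIM family, differed by 0.35. The Fc receptor Fcgr3 differed by -0.28 and Cd274, by -0.38; Cd274 is the ligand of PD-1, which is not among the members, and is counted in this list. None of the listed genes passed the test (limma adjusted p from 0.925 to 0.996 over the list), and the groups overlapped for all 12.

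Cytokines and homing receptors that act on T and NK cells also gave 0 calls. Of 11 tested cytokine genes, 4 had higher means in DSHN and 7 lower ones (median difference -0.02), and without both DMSO 1 and DSHN 1 it was 7 that were higher (median 0.07). Il15, which sustains NK cells, differed by -0.39, Il18 by 0.29, Tgfb1 by -0.19 and Cxcl10, an attractant of activated T and NK cells, by -0.56. Of 9 tested homing receptors, 6 had higher means and 3 lower ones (median difference 0.05), and without DSHN 1 it was 3 that were higher (median -0.06). Cx3cr1, the fractalkine receptor of monocytes and some NK and T cells, was above the limit in 4 DMSO and 3 DSHN pools. Its groups narrowly failed to overlap, at 4.94 to 6.02 in DMSO and 6.03 to 6.90 in DSHN, as for 2.53% of the genes tested in that direction. The level of 6.90 was that of DSHN 1, with 23 counts against a limit of 40.1. The difference in Cx3cr1 was 0.78 ± 0.33 (SE; limma adjusted p = 0.925, exact permutation p = 0.0286). S1pr1 differed by 0.46 and Cxcr4 by -0.33, and Cxcr3 and Cxcr6, receptors of effector T and NK cells, were under the limit in all 8 pools.

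Patterns over the pools were compared for the members that were detected best. Likeness was measured as the root mean square difference between 2 genes' levels, each centred on its own mean over the 8 pools, for the 4 members above the limit in at least 6 pools against 506 other genes. Nkg7 and Cd244 were the most alike of these members, at 0.32, and Cd247 and Gzma the least, at 1.13. Nearest to Cd247 were Col4a2, Golim4 and Ercc1, at 0.33, 0.36 and 0.40 against a median of 1.06 over the candidates. Each of these 3 was highest in DSHN 1, where 33, 29 and 41 counts were recorded. Nearest to Gzma were Vcam1, Dusp2 and Adamts1, at 0.40 to 0.43, and the member Nkg7 lay at 0.42 from it. Nearest to Nkg7 were Il18r1, Crem and Sp4, at 0.21 to 0.28, and nearest to Cd244 were Adam8, Crem and H2-T23, at 0.20 to 0.22. Levels in DSHN 1, where none of the members was above the limit, enter all of these values.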

How the data were processed

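Values of 768 probes in 8 pools were deposited on a log2 scale with 2 decimals; the sources used here do not name the software. From the deposited log2 values themselves, negative controls are whole counts, and low gene values of each pool are multiples of a single step to within 0.006 in log2, near the factor that 5 positive controls give. Dividing by that step gave recovered counts, rounded to whole numbers below 100; brighter ones are known only to the rounding. In all, 3 values were listed at 0.

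Limma 3.58.1 in R 4.3.3 was run with a variance trend on levels relative to Oaz1, Ppia, Rpl19 and Tubb5, on 554 genes with a deposited value of 20 or more in at least 4 pools, with Benjamini-Hochberg adjustment. All 8 members passed this filter. It acts on deposited values, so the factor of DMSO 1 helps genes through it. Icos, Lag3 and Havcr2 reached 20 in no more than 4 pools. DMSO 1 was among these, with 20, 11 and 12 counts, under its limit of 26.9. For Havcr2 the 4 were the DMSO pools. No difference is printed where a gene was above the limit in 0 pools of a group. The code was checked on simulated data with known changes.

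Named genes were the members, their partners on the panel, up to 4 genes of smallest p per list among those above the limit in at least 4 pools, the 3 genes most like each member above it in at least 6, and housekeeping genes; some undetected list genes were added after their values were seen, and a gene that this rule names is not reported here. Members, lists and tests were chosen with earlier results of these data known, so no pattern here is independent support. Of the members, 7 matched a RefSeq symbol and Cd244 matched a synonym of Cd244a. Replicate numbers did not pair the pools.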

Additional observations from a re-analysis of the deposited data

Results flagged for a closer look

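Of 18 groups of 4 pools examined for a pool far from the others, 1 was found, where chance gives about 1 in 20. It was the mean of the 4 housekeeping genes as deposited, at 7.86 on the log2 scale in DSHN 1 against 10.50 to 10.84 in the other DSHN pools. This mean is subtracted from every level of DSHN 1, and 0 of the 8 members lay above the negative-control limit there.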

How the results depend on the processing

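Low counts, the depth of DSHN 1 and the small number of pools limit what these genes can show. No member passed the test under any other setting that included it, 25 for 6 members and 24 for Lag3 and Havcr2; none was above the limit in all 8 pools, so that filter tested no member. Over all genes tested, 0 passed, except 5 with sample weights, of which 2, Cdh5 and Lamp3, are among the markers named above; the estimation of those weights stopped before it reached its tolerance. Genes at an unadjusted p under 0.05 numbered 20. That count was 40 with no filter, 4 among genes above the limit in all 8 pools, 196 on deposited values, 9 with values under the limit set to it, 12 with background subtracted, 74 with sample weights and 11 with a replicate block. It was 9 with background subtracted and DSHN 1 left out, and 11 to 28 when 1 pool was left out, with 12 without DSHN 1 and 11 without DSHN 3. The block changed no call at the adjusted threshold, and with it the unadjusted p of Cd247 was 0.0507 (95% interval -0.01 to 2.84; limma), against 0.0238 without; deviations of same-numbered pools correlated at -0.29 to 0.14, and no pool of DMSO correlated best with its own number.

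The Cd247 difference, 1.42, was -0.48 as deposited, 0.61 without the authors' factor (95% interval -0.36 to 1.58), 1.17 with values under the limit set to it (-0.25 to 2.60) and 0.89 to 1.65 when 1 pool was left out. It was 1.59 with Tubb5 left out of the scaling and 1.52 when scaled to the sum over gene probes. With sample weights, whose estimation did not reach its tolerance, it was 1.06 (0.50 to 1.62, limma adjusted p = 0.0985). Icos was -1.50 as deposited, -0.19 after quantile normalization and -0.40 without the authors' factor, and 0.17 to 0.62 when 1 pool was left out. Nkg7 was -1.50, -0.02 and -0.40 under the same 3 settings, -0.30 with background subtracted, and 0.11 to 0.62 when 1 pool was left out. Klrk1 was -1.66, -0.17 and -0.56, and -0.05 with background subtracted; it ran from -0.19 to 0.78 when 1 pool was left out. Gzma, near 0, was 0.14 with Tubb5 left out of the scaling, 0.07 when scaled to the sum over gene probes, 0.06 with values under the limit set to it, 0.25 with sample weights and 0.05 without DMSO 1 and DSHN 1. It ran from -0.32 to 0.29 when 1 pool was left out. Cd244 was 0.14, 0.07 and 0.22 under the first 3 of these, and -0.37 to 0.20 when 1 pool was left out. Both Gzma and Cd244 were -1.93 as deposited and -0.83 without the authors' factor. Neither setting subtracts the housekeeping mean, which differed by -1.9 on deposited values. As deposited, 553 of the 554 genes tested were lower in DSHN (median -1.87), and without the authors' factor 524 were (median -0.77). Lower values under these settings are thus not particular to the members. The cause of the other reversals was not tested.

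The housekeeping difference ran from -2.21 to -1.19 when 1 pool was left out, the latter without DSHN 1 (exact permutation p = 0.0571). Without DMSO 1, the pool with the factor of 6.83, it was -1.41 (exact permutation p = 0.1143). It was -0.70 without DMSO 1 and DSHN 1 (exact permutation p = 0.1, the smallest possible there). The negative-control difference was -0.64 on deposited values. The members' 38 values above the limit became 33 at a limit of the mean plus 3 SD and 39 at the highest negative control.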

Other observations

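Il2, the T cell growth factor, and Tigit, an inhibitory receptor of T and NK cells, were singled out after their values were seen. Il2 was under the negative-control limit in all 8 pools, with 3 to 5 counts in DMSO and 6 to 13 in DSHN. Relative to housekeeping genes the Il2 levels nevertheless did not overlap, at 1.70 to 2.21 in DMSO and 2.43 to 5.83 in DSHN. No p-value is given, since the gene was picked with these values in view. Tigit was above the limit in 1 pool, DSHN 4, and did not overlap either, at 3.38 to 3.70 in DMSO and 4.09 to 6.77 in DSHN. Of the 157 genes under the limit in all 8 pools, 14 (8.92%) had groups that did not overlap and were higher in DSHN, against 2.53% of the 554 genes tested.

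Klrk1 and Ccl5 were both highest in DMSO 1, with levels of 6.61 and 9.96, while Cd247 was lowest there, with 3.95 and 12 counts. Gzma and Nkg7 were highest in DSHN 2 among the pools where they were above the limit, with 244 and 70 counts.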
